A study of Mus musculus with 6 samples.

Results

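AMP-activated protein kinase (AMPK) was followed at the RNA level through its 7 subunit genes and 2 genes of kinases that act on it, in C2C12 cells before and after myogenic differentiation. The members were chosen by gene symbol, and all 9 were found among the 54525 gene rows of each library. They were the catalytic subunits *Prkaa1* and *Prkaa2*, the scaffold subunits *Prkab1* and *Prkab2*, the nucleotide-binding subunits *Prkag1*, *Prkag2* and *Prkag3*, and the upstream kinases *Stk11* and *Camkk2*. RNA-seq was available from 3 libraries of myoblasts (D0) and 3 libraries of myotubes after 5 days of differentiation (D5). All 6 came from wild-type C2C12, a single established line of mouse muscle myoblasts, so the comparison covers 1 line and 1 later time point. The labels list no treatment. By the study's methods, growth medium held fetal bovine serum and differentiation medium a lower percentage of horse serum. Stage and medium thus differ together between D0 and D5, and their separate parts were not tested.

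AMPK senses the energy state of a cell. It is a heterotrimer of a catalytic α subunit, a β subunit that holds the complex together and can bind glycogen, and a γ subunit that binds adenine nucleotides, and each class is encoded by more than 1 gene. LKB1 (encoded by *Stk11*) and CaMKK2 phosphorylate the α subunit, and active AMPK in muscle favors glucose uptake and fatty acid oxidation over synthesis. The γ3 subunit encoded by *Prkag3* is known for its restriction to skeletal muscle, mainly fast glycolytic fibers, and is usually found together with α2 and β2.

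The 3 members with the largest rise are shown first at their gene starts, because their D0 and D5 levels lay farthest apart in the upward direction. The sequences are those listed by RefSeq for GRCm38.p6, read 5′ to 3′ on the strand of the gene. For *Prkaa2* the 250 bases before the start are printed (chr4:105109899-105110148, minus strand). For *Prkab2* the 231 bases that lie outside annotated exons are printed (chr3:97657962-97658192, plus strand). Capitals in both mark CpG dinucleotides.
Prkaa2: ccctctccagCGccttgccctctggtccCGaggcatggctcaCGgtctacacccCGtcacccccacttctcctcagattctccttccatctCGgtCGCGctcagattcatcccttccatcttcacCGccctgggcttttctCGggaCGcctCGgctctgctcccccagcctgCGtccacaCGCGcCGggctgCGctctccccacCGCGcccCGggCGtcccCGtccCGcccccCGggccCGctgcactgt
Prkab2: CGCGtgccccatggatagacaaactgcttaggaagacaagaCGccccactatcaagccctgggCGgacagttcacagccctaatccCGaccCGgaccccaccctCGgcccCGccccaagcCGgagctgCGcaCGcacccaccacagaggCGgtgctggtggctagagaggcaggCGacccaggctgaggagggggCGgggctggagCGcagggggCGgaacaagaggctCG
The 250 bases before the RefSeq start of *Prkag3* lie wholly within an annotated exon of a longer transcript, so only 26 bases around their 1 E-box are printed (chr1:74748980-74749005, minus strand), with the E-box in capitals.
Prkag3: agtgcgggaaCAGCTGcgggttaagc

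E-boxes (CANNTG, read on both strands) are the motif bound by myogenic regulatory factors such as MyoD and myogenin. The 250 bases before the start held 24 CpG in *Prkaa2*, 18 in *Prkab2* and 9 in *Prkag3*. Over 32536 distinct mouse promoters the median was 6.0 and the upper quartile 16. The same window held 45 in *Prkaa1*, 24 in *Prkab1*, 12 in *Prkag1*, 24 in *Stk11* and 32 in *Camkk2*. The 3 starts of *Prkag2* held 34, 4 and 23, so the CpG number did not set the rising members apart. Neither *Prkaa2* nor *Prkab2* had an E-box in this window. *Prkag3* had 1, the core CAGCTG, 40 bases before its start, and 13.1% of all promoters hold that core whereas 66.2% hold an E-box of any kind. All 9 members were matched to 11 promoters. The promoters of *Prkaa1*, *Prkab1* and *Camkk2* held no E-box, that of *Prkag1* held 1, that of *Stk11* held 2, and the 3 starts of *Prkag2* held 2, 3 and 1. No member promoter held TATAAA, found in 12.3% of all promoters, or a MEF2 site, found in 2.89%. CATTCC occurred once, at the second start of *Prkag2*, and in 12.6% of all promoters. These are matches of letters and not measured binding.

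The libraries held from 36555048 to 40895840 gene counts at D0 and from 25449759 to 25811300 at D5. Levels are given as CPM (counts relative to the TMM-scaled library size), or as TPM, which instead divides by exonic length before scaling and is the scale used between genes. Changes are log2 fold changes of D5 over D0 from edgeR's quasi-likelihood test, with a standard error (SE), and adjusted p-values are Benjamini-Hochberg values over the 16290 genes tested. Markers of the stages named in the labels were present: all 6 myotube markers rose (summed CPM from 5840 to 6250 at D0 and from 33200 to 34900 at D5, of which *Ttn* alone was 5815 to 6212 and 23428 to 24369), and all 3 myoblast markers fell (from 339 to 356, and from 154 to 160). All 5 markers of cycling cells fell as well, from a summed CPM of 1700 to 1720 at D0 to between 89.2 and 99.3 at D5, and their part in the results was not tested. Adipocyte markers were near 0, with a summed CPM of at most 0.0406 in any library and *Cidec* and *Lep* at 0 throughout. Osteoblast markers reached at most 0.322, with *Ibsp* at 0. Endothelial markers lay between 2.46 and 2.97 at D0 and between 0.325 and 0.402 at D5, with *Tie1* at 0. *Kdr* made up nearly all of that sum at D0 (2.28 to 2.81 CPM) and 0.199 to 0.243 CPM of it at D5. Leukocyte markers lay between 3.16 and 3.39 at D0 and between 2.05 and 3.17 at D5, mostly *Cd68*.

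AMPK subunit genes changed unevenly during differentiation, with the largest differences in the γ and α classes. *Prkag3* rose by a log2 fold change of 8.85, *Prkaa2* by 4.76 and *Prkab2* by 1.22, while *Prkag2* fell by 1.47. The other 5 members each changed by 0.20 or less on the log2 scale. All 9 members passed the edgeR threshold of an adjusted p of 0.05, 7 of them higher and 2 lower at D5. Among all genes tested, 82.9% passed, 42.2% as higher and 40.8% as lower, so that a call by itself does not set the members apart. The CPM of the 2 groups did not overlap for any of the 9 members, as for 83.3% of all genes tested. The median log2 fold change was 0.17 over the members and 0.0022 over all genes tested. By log2 fold change *Prkag3* was number 112 from the top of the 16290 genes, *Prkaa2* number 689 and *Prkab2* number 2638, and *Prkag2* was number 1555 from the bottom.

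**Figure D1:**
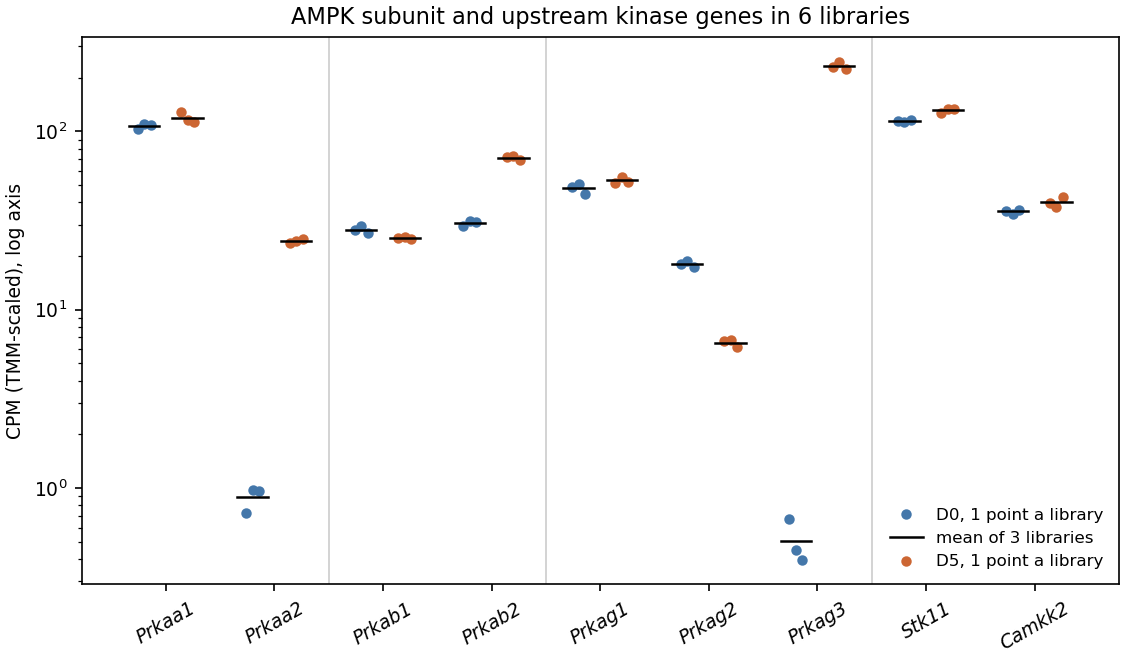
CPM (TMM-scaled, log axis) of the 9 genes in each of the 6 libraries, 1 point a library, with a line at the mean of each group of 3. The groups are farthest apart for *Prkag3* (means 0.506 and 233 CPM) and *Prkaa2* (0.888 and 24.3 CPM), and lie close together for *Prkaa1*, *Prkab1*, *Prkag1*, *Stk11* and *Camkk2*.

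The direction of the small changes of *Prkaa1*, *Prkag1*, *Stk11* and *Camkk2* depended on how the libraries were scaled, while *Prkab1* stayed below 0 in each setting run. The median log2 fold change of all genes moved to -0.58 when libraries were scaled to the ERCC spike-ins and to -0.68 without any scaling. Genes higher at D5 made up 50.8% of all calls with TMM, 32.6% with ERCC scaling and 23.4% without scaling. Of the 9 members, 2 passed as higher and 1 as lower with ERCC scaling, and 3 as higher and 6 as lower without scaling. Of all 16290 genes tested, 5560 passed with ERCC scaling and 14306 without scaling, so these counts do not set the members apart. Standard errors were larger with ERCC scaling (0.52 for *Prkaa1*, against 0.040 with TMM), and the share of spike-in counts ran from 0.720% to 2.09% over the D5 libraries, a 2.90-fold range, against a 1.18-fold range at D0. *Prkag3*, *Prkaa2* and *Prkag2* kept their direction and their call in each of the 14 alternative settings run. Ratios between members within a library do not depend on the scaling.

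**Figure D2:**
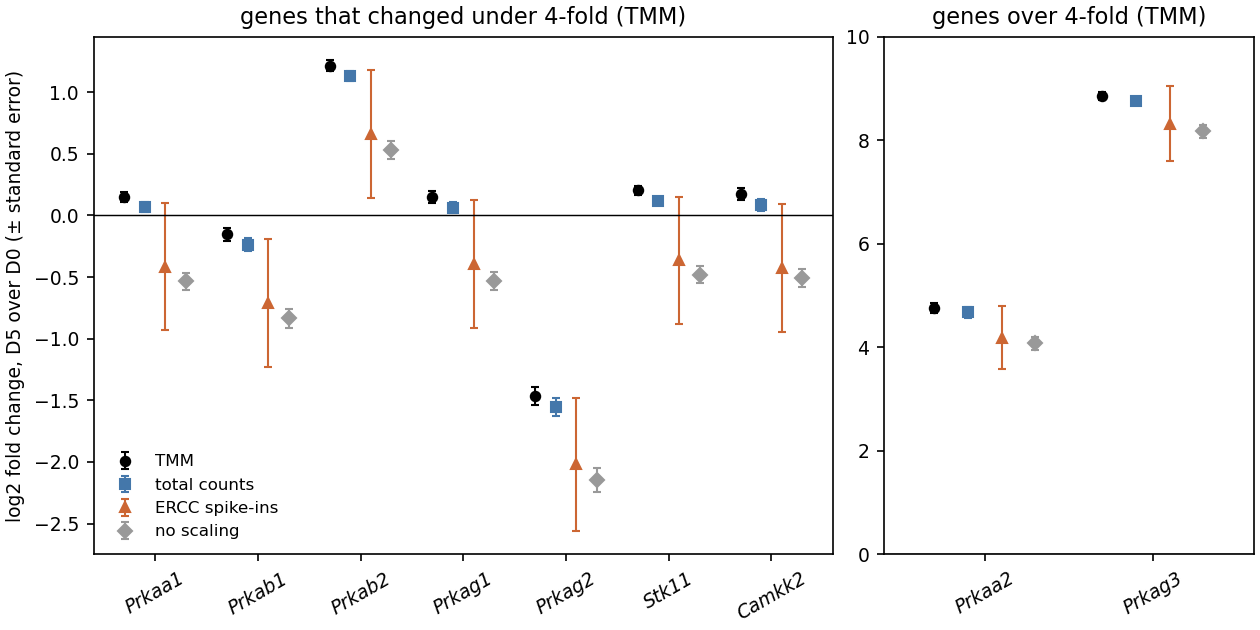
Log2 fold change of D5 over D0 with its standard error for the 9 genes under TMM, total counts, ERCC spike-in and no scaling, with the y axis of the right panel covering a wider range. *Prkaa1*, *Prkag1*, *Stk11* and *Camkk2* lie above 0 with TMM and total counts and below 0 with the other scalings, whereas *Prkag3*, *Prkaa2* and *Prkab2* lie above 0 and *Prkag2* and *Prkab1* below 0 under all 4.

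Among the catalytic subunits, *Prkaa1* encodes α1, the form found in most tissues. It lies on chromosome 15 (5143861 to 5181899, plus strand). Its counts were 3862, 4653 and 4360 at D0 and 3220, 2856 and 2820 at D5, which gave 103, 111 and 108 CPM at D0 and 128, 116 and 113 CPM at D5. Each D5 library was above each D0 library in CPM, by a small margin. The log2 fold change was 0.15 (SE 0.040, adjusted p = 0.00124), and it became -0.41 (SE 0.52) with ERCC scaling and -0.53 (SE 0.068) without scaling. In TPM, which uses no TMM factors, the groups overlapped, at 79.8 ± 3.90 TPM at D0 and 79.4 ± 6.85 TPM at D5 (SD, n = 3). The length of a gene is the same in each library, so this difference from CPM lies in the scaling.

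*Prkaa2* encodes α2, the catalytic form that predominates in adult skeletal and cardiac muscle. It lies on chromosome 4 (105029874 to 105109890, minus strand). Its counts were 27, 41 and 39 at D0 and 592, 602 and 619 at D5, or 0.721, 0.975 and 0.968 CPM against 23.6, 24.4 and 24.9 CPM. All 3 D5 libraries stood far above the D0 libraries. The rise was 27.1-fold, a log2 fold change of 4.76 (SE 0.10, 95% interval 4.55 to 4.97, adjusted p = 2.75e-27). It was 4.19 (SE 0.60) with ERCC scaling. Pooled over libraries the ratio was 27.2, with an exact 95% interval for counting error alone from 22.4 to 33.4. That is wider than the fitted interval, so the fitted SE understates the error.

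Within the α class, α1 transcripts still outnumbered α2 transcripts in the myotubes. *Prkaa2* made up 0.480% ± 0.063 of the α TPM at D0 and 10.7% ± 0.87 at D5 (SD, n = 3), and *Prkaa1* the remaining 99.5% and 89.3%. In plain counts *Prkaa2* held 0.818% and 17.0%. The ratio of *Prkaa2* to *Prkaa1* per length went from 0.00408, 0.00515 and 0.00523 at D0 to 0.107, 0.123 and 0.128 at D5. The log2 difference of these ratios was 4.64 (SE 0.14) without overlap between the groups. An exact two-sided permutation test gave p = 0.1, the smallest value that 3 against 3 libraries allow, and 0.125 after adjustment over the 5 ratios compared. The summed α level was 80.1 ± 3.96 TPM at D0 and 88.9 ± 6.78 TPM at D5.

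Of the scaffold subunits, *Prkab1* encodes β1 and lies on chromosome 5 (116013586 to 116024508, minus strand). Its counts were 1045, 1238 and 1081 at D0 and 633, 632 and 620 at D5, or 27.9, 29.4 and 26.8 CPM against 25.2, 25.6 and 24.9 CPM. The D5 libraries lay just below the D0 libraries. The log2 fold change was -0.15 (SE 0.052, adjusted p = 0.00802), and -0.71 (SE 0.52, adjusted p = 0.294) with ERCC scaling. On the TPM scale, without TMM factors, it went from 31.6 ± 1.45 to 25.5 ± 0.508 (SD, n = 3), without overlap.

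*Prkab2* encodes β2, the scaffold form that is abundant in skeletal muscle, and lies on chromosome 3 (97658193 to 97673812, plus strand). Its counts were 1103, 1326 and 1242 at D0 and 1801, 1798 and 1710 at D5, or 29.4, 31.5 and 30.8 CPM against 71.7, 73.0 and 68.7 CPM. Counts themselves were higher at D5 although the D5 libraries were smaller. The rise was 2.32-fold, a log2 fold change of 1.22 (SE 0.043, adjusted p = 1.77e-21). With ERCC scaling it was 0.66 (SE 0.52, adjusted p = 0.329), which no longer passed.

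The order of the β forms turned over between the groups. *Prkab2* held 39.6% ± 1.09 of the β TPM at D0 and 62.9% ± 0.42 at D5 (SD, n = 3), and *Prkab1* held 60.4% and 37.1%. The ratio of *Prkab2* to *Prkab1* per length was 0.635, 0.644 and 0.691 at D0 and 1.71, 1.71 and 1.66 at D5, a log2 difference of 1.37 (SE 0.041), with the exact permutation p of 0.1 again at its limit. The turnover rests on dividing by exonic length: in plain counts *Prkab2* already held 52.2% at D0 and held 73.8% at D5, so its share rose on both scales but crossed that of *Prkab1* only per length. The summed β level was 52.4 ± 2.14 TPM at D0 and 68.8 ± 2.06 TPM at D5, 1.31 times higher on this scale. Sums were made in TPM only, and their change between groups depends on the scaling. With ERCC scaling the log2 fold changes of *Prkab1* and *Prkab2* were -0.71 and 0.66, and neither passed. Without scaling they were -0.84 and 0.53.

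*Prkag1* encodes γ1, the widely expressed nucleotide-binding form, and lies on chromosome 15 (98812797 to 98831521, minus strand). Its counts were 1820, 2123 and 1792 at D0 and 1286, 1371 and 1301 at D5, or 48.6, 50.5 and 44.5 CPM against 51.2, 55.6 and 52.3 CPM. The groups did not overlap, with the highest D0 library close under the lowest D5 library. The log2 fold change was 0.15 (SE 0.047, adjusted p = 0.00517), and it became -0.40 (SE 0.52) with ERCC scaling and -0.53 (SE 0.073) without scaling. Without D0 replicate 3 it was 0.085 and the call was lost (adjusted p = 0.105). The call was also lost with total counts (0.063, adjusted p = 0.203) and without a filter (0.094, adjusted p = 0.0749). On the opposite strand 43.7% of its exonic length is shared with *B130046B21Rik*, which had from 2 to 15 counts a library, and whether reads were counted by strand is not given in the sources used here.

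*Prkag2* encodes γ2, a form known from heart, and was the member with the largest fall. It lies on chromosome 5 (24862744 to 25100642, minus strand) and has 3 RefSeq starts with separate promoters, which counts per gene do not tell apart. Its counts were 676, 785 and 696 at D0 and 167, 166 and 153 at D5, or 18.0, 18.7 and 17.3 CPM against 6.65, 6.74 and 6.15 CPM. The D5 level was 36.2% of the D0 level, a log2 fold change of -1.47 (SE 0.074, 95% interval -1.62 to -1.31, adjusted p = 1.52e-17), and the groups were well apart. With ERCC scaling it was -2.02 (SE 0.54, adjusted p = 0.00111). The antisense genes *Prkag2os1* and *Prkag2os2* share 14.5% of its exonic length, and *Prkag2os2* fell too, from 32, 30 and 26 counts to 4, 3 and 1, so reads of the pair cannot be told apart without strand.

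*Prkag3* encodes γ3, and lies on chromosome 1 (74738922 to 74749221, minus strand). Its counts were 25, 19 and 16 at D0 and 5748, 6062 and 5595 at D5, or 0.667, 0.452 and 0.397 CPM against 229, 246 and 225 CPM. It was low in all 3 myoblast libraries and high in all 3 myotube libraries. The rise was 462-fold, a log2 fold change of 8.85 (SE 0.078, 95% interval 8.69 to 9.01, adjusted p = 3.86e-37). It was 8.32 (SE 0.72) with ERCC scaling. Pooled over libraries the ratio was 465, with an exact 95% interval for counting error alone from 361 to 610. Here too the fitted interval is the narrower one, and the fitted SE understates the error. In bulk RNA, fewer cells that express a gene and less of its RNA per cell cannot be told apart, and this holds for each level given here.

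The γ class changed its leading member. Per length *Prkag1* held 88.3% ± 0.24 of the γ TPM at D0 and 27.5% ± 0.41 at D5, *Prkag2* went from 11.2% ± 0.28 to 1.13% ± 0.044, and *Prkag3* went from 0.550% ± 0.14 to 71.4% ± 0.37 (SD, n = 3). The ratio of *Prkag3* to *Prkag1* was 0.00811, 0.00529 and 0.00527 at D0 and 2.64, 2.61 and 2.54 at D5, a log2 difference of 8.74 (SE 0.21). The ratio of *Prkag2* to *Prkag1* was 0.125, 0.124 and 0.130 at D0 and 0.0436, 0.0406 and 0.0395 at D5, a log2 difference of -1.62 (SE 0.048). Neither ratio overlapped between the groups, and for both the exact two-sided permutation p was 0.1. In plain counts *Prkag3* held 0.760% of the class at D0 and 79.7% at D5, *Prkag1* 72.1% and 18.1%, and *Prkag2* 27.1% and 2.22%, so the share of *Prkag2* was larger than per length but fell on both scales. The summed γ level was 86.1 ± 4.74 TPM at D0 and 275 ± 9.86 TPM at D5, 3.19 times higher, against 1.31 times for β. Both values hold for TPM and would shift together with another scaling of the libraries.

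**Figure D3:**
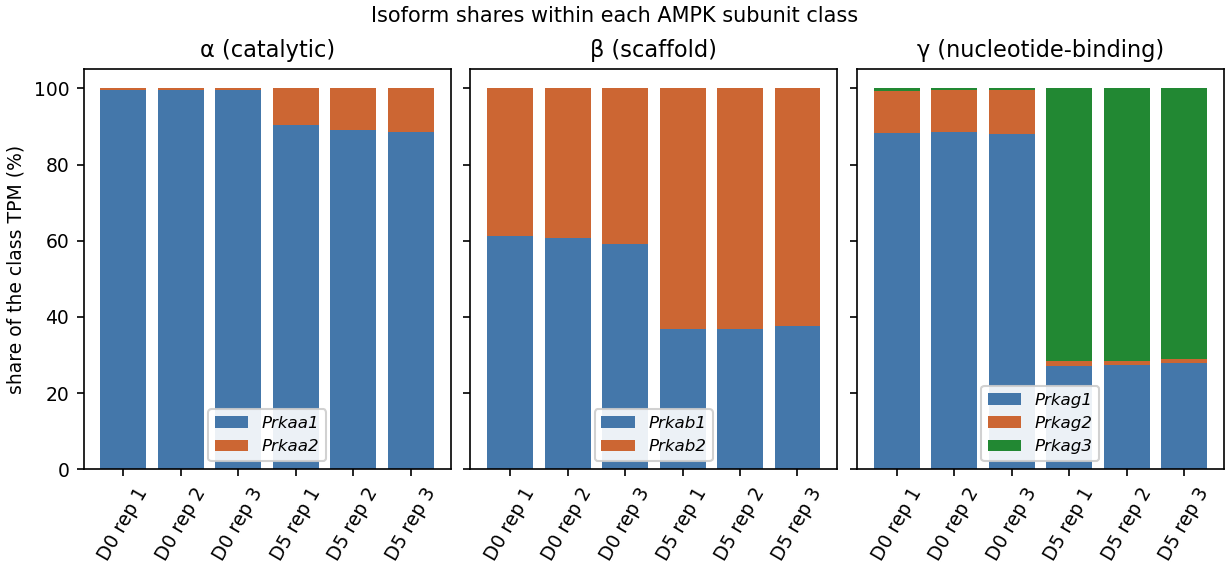
Share (%) of each gene in the TPM of its subunit class, 1 stacked bar for each of the 6 libraries. *Prkag3* takes 71.4% of the γ class at D5 from 0.550% at D0, *Prkab2* 62.9% of the β class from 39.6%, and *Prkaa2* 10.7% of the α class from 0.480%, with little spread between replicates.

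The upstream kinases changed little. *Stk11* encodes LKB1, which phosphorylates AMPK and a series of related kinases, and lies on chromosome 10 (80115803 to 80130682, plus strand). Its counts were 4281, 4734 and 4649 at D0 and 3200, 3269 and 3330 at D5, or 114, 113 and 115 CPM against 127, 133 and 134 CPM. All D5 libraries were above all D0 libraries, with a log2 fold change of 0.20 (SE 0.034, adjusted p = 3.23e-06) that became -0.36 (SE 0.52) with ERCC scaling and -0.48 (SE 0.068) without scaling. On the TPM scale, without TMM factors, it was 86.2 ± 1.93 at D0 and 88.9 ± 1.03 at D5 (SD, n = 3), with overlap. It shares 5.07% of its exonic length with *Cbarp* on the opposite strand.

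*Camkk2* encodes the calcium- and calmodulin-dependent kinase that phosphorylates AMPK, and lies on chromosome 5 (122731170 to 122779409, minus strand). Its counts were 1345, 1455 and 1465 at D0 and 999, 932 and 1066 at D5, or 35.9, 34.6 and 36.4 CPM against 39.8, 37.8 and 42.8 CPM. The groups were close but did not overlap. The log2 fold change was 0.17 (SE 0.048, adjusted p = 0.00173), and it became -0.43 (SE 0.52) with ERCC scaling and -0.51 (SE 0.075) without scaling. The ratio of *Camkk2* to *Stk11* per length was 0.131 at D0 and 0.128 at D5, a log2 difference of -0.032 (SE 0.052), with overlapping groups and an exact two-sided permutation p of 0.8.

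Per length, the members in myoblasts ranked from *Stk11* (86.2 TPM) through *Prkaa1* (79.8), *Prkag1* (76.1), *Prkab1* (31.6), *Prkab2* (20.8), *Camkk2* (11.3) and *Prkag2* (9.60) to *Prkag3* (0.473) and *Prkaa2* (0.386 TPM). Of neighbors in this order, *Prkaa1* and *Prkag1* overlapped, as did *Prkag3* and *Prkaa2*. In myotubes the order was *Prkag3* (196 TPM), *Stk11* (88.9), *Prkaa1* (79.4), *Prkag1* (75.6), *Prkab2* (43.3), *Prkab1* (25.5), *Camkk2* (11.4), *Prkaa2* (9.45) and *Prkag2* (3.12 TPM). There *Prkaa1* and *Prkag1* again overlapped, and no other neighbors did. *Prkag3* thus went from the lower end of the members to the first place, while *Prkaa2* remained among the lower members. Both orders rest on the union of exons as length. That length exceeds the longest coding transcript by far for *Camkk2* (10921 against 4861 bases), less for *Prkag1* (2175 against 1652) and not for *Prkaa1* (4655 for both). The members were not ranked again by coding length, so neighbors may change places.

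The 3 genes with the profile most like *Prkag3* over the 6 libraries were *Ablim3*, an actin-binding LIM protein gene, *Hfe2*, which encodes hemojuvelin, and *Dcn*, which encodes the matrix proteoglycan decorin. Their root mean square differences from it in log2 CPM were 0.337, 0.358 and 0.452. *Ablim3* went from 0.444 to 187 CPM, *Hfe2* from 0.676 to 260 CPM and *Dcn* from 0.375 to 242 CPM. The 3 genes most like *Prkag2* were *Fam110b* (0.0642), *Gata3* (0.0877), which encodes a transcription factor, and *Ccdc14* (0.0986). *Fam110b* went from 17.3 to 6.35 CPM, *Gata3* from 18.9 to 6.40 CPM and *Ccdc14* from 18.0 to 6.39 CPM. The measure compares level as well as change and picks genes out of all those tested.

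Other genes of the pathway were taken from 8 lists of 66 genes, of which 64 were tested. Of these 41 rose, 21 fell and 2 did not pass, where 42.2% of all genes tested rose and 40.8% fell, and their median log2 fold change was 0.40, beside 0.0022 over all genes. With ERCC scaling 9 passed as higher and 9 as lower, and without scaling 21 and 37, so the excess of higher over lower genes was not kept with these scalings. Of all 16290 genes tested, 1813 passed as higher and 3747 as lower with ERCC scaling, and 3353 and 10953 without scaling. Of the 19 genes named below by rule, *Sesn1*, *Sesn3*, *Snrk*, *Srebf1*, *Foxo3*, *Hdac4* and *Mtfr1l* no longer passed with ERCC scaling. Their values under it are given beside them. *Sesn2* and *Cpt1b* are named outside that rule and were not followed over the scalings. Genes on the opposite strand share 25.7% of the exonic length of *Brsk1*, 22.4% of *Hdac4*, 19.6% of *Fabp3* and 19.4% of *Txnip*. For *Lipe* the share is 15.6% and for *Gys1* 6.47%. Whether reads were counted by strand is not given, and counts of these partners are not shown here.

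The partners of the upstream kinases changed mostly by small amounts, with 4 of 8 higher, 3 lower and 1 not passing (median 0.14). The exception was *Camkk1*, the paralog of *Camkk2*, which fell from 20.1 ± 0.819 to 4.81 ± 0.544 CPM (log2 fold change -2.07, SE 0.081, adjusted p = 2.21e-20). Of 11 regulators of AMPK 8 rose and 3 fell (median 0.78). *Ppm1e*, a phosphatase that can act on AMPK, rose from 6.77 ± 0.185 to 30.6 ± 1.60 CPM (log2 fold change 2.18, SE 0.064). The sestrin genes *Sesn1* (1.44, SE 0.051) and *Sesn3* (1.38, SE 0.038) rose too, at 0.90 (adjusted p = 0.171) and 0.81 (adjusted p = 0.22) with ERCC scaling, while the third, *Sesn2*, fell by 0.96 (SE 0.069) on the log2 scale. *Sesn2* is named as the remaining sestrin, after its value was seen.

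Of 12 AMPK-related kinases, which LKB1 also phosphorylates for the most part, 10 were tested, and 3 rose, 6 fell and 1 did not pass (median -0.17). *Mark1* and *Brsk2* were too low to be tested. *Snrk* rose from 19.0 ± 0.171 to 48.1 ± 1.73 CPM (log2 fold change 1.34, SE 0.048), which was 0.78 with ERCC scaling (adjusted p = 0.247), and *Brsk1* fell from 30.3 ± 0.894 to 11.4 ± 0.221 CPM (-1.41, SE 0.058).

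Substrates of AMPK were grouped by role. All 7 lipid and sterol substrates were higher at D5 (median 0.65), beside 42.2% of all genes tested. *Acacb*, the acetyl-CoA carboxylase that controls fatty acid entry into mitochondria, had 9, 5 and 5 counts at D0 and 162, 141 and 185 at D5, a log2 fold change of 5.33 (SE 0.22). Pooled over libraries this was 41.2-fold, with an exact 95% interval for counting error alone from 26.1 to 69.1. *Lipe*, which encodes hormone-sensitive lipase, rose by 2.02 (SE 0.12) and *Srebf1*, a transcription factor of lipid synthesis, by 1.35 (SE 0.037) on the log2 scale. *Srebf1* was 0.78 with ERCC scaling (adjusted p = 0.241).

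Of 6 glucose and glycogen substrates 3 rose and 3 fell (median 0.32). *Txnip*, which restrains glucose uptake, rose from 35.2 ± 3.88 to 171 ± 17.6 CPM (log2 fold change 2.28, SE 0.060), and *Gys1*, muscle glycogen synthase, from 57.7 ± 1.23 to 225 ± 2.28 CPM (1.96, SE 0.034). Of 6 growth and autophagy substrates 5 rose and 1 fell (median 0.71). *Foxo3*, a transcription factor of atrophy and autophagy genes, rose by 1.03 (SE 0.036), and *Eef2k*, the kinase that restrains translation elongation, fell by 1.01 (SE 0.051) on the log2 scale. *Foxo3* was 0.46 with ERCC scaling (adjusted p = 0.508). Of 7 substrates in transcription and mitochondria 4 rose and 3 fell (median 0.15), among them *Hdac4*, a class IIa histone deacetylase, at 1.18 (SE 0.041), and *Mtfr1l*, a mitochondrial protein gene, at 1.12 (SE 0.039) on the log2 scale. With ERCC scaling *Hdac4* was 0.61 (adjusted p = 0.374) and *Mtfr1l* 0.58 (adjusted p = 0.398).

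Of 9 fuel genes of oxidative muscle 7 rose and 2 fell (median 1.00), beside 42.2% higher and 40.8% lower of all genes tested. Of the 2 that fell, *Cpt1b* had only 17, 17 and 26 counts at D0 and 2, 8 and 7 at D5. It shares 81.4% of its exonic length with *Gm44502* on the same strand. How reads in shared exons were counted is not given in the sources used here. *Cpt1b* is named outside the rule, for these limits. *Cd36*, a fatty acid transporter, had 0, 3 and 2 counts at D0 and 1171, 1146 and 1111 at D5, at least 610-fold higher against a floor of 3 counts a library. *Slc2a4*, the insulin-responsive glucose transporter GLUT4, had 0, 4 and 3 counts at D0 and 193, 187 and 172 at D5, a pooled ratio of 127 with an exact 95% counting interval from 61.0 to 316. *Fabp3*, a fatty acid binding protein of muscle, rose by 3.38 (SE 0.066), and *Lpl*, lipoprotein lipase, fell by 1.58 (SE 0.073) on the log2 scale. The 4 adipocyte markers summed to at most 0.0406 CPM in the same libraries, and which cells held the transcripts of these fuel genes was not tested.

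**Figure D4:**
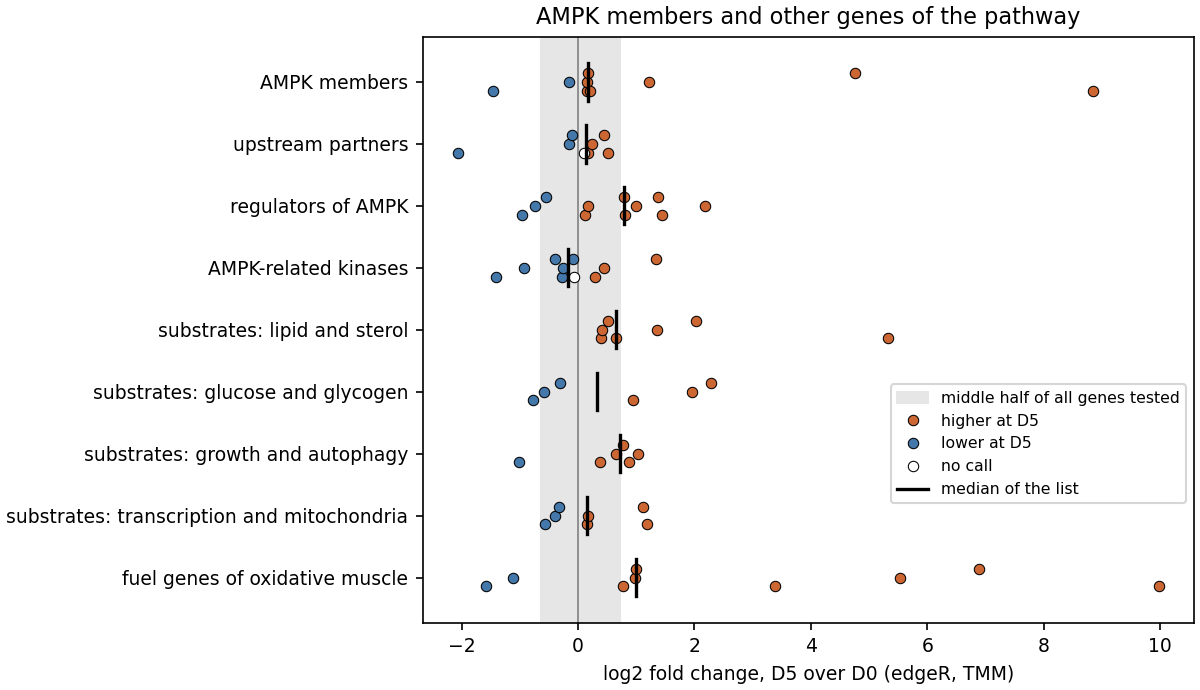
Log2 fold change of D5 over D0 (edgeR, TMM) for the AMPK members and the 8 other lists, 1 point a gene, filled by its call, with a bar at each list's median and a gray band for the middle 50% of all genes tested. *Prkag3* (8.85), *Cd36* (9.98 as fitted) and *Slc2a4* (6.89 as fitted) lie farthest to the right, and *Camkk1* (-2.07) farthest to the left.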

How the data were processed

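The authors aligned reads to GRCm38 and counted them on genes with featureCounts, and the deposited values are counts without normalization. The labels name Tophat2 and the study's methods HISAT2 as the aligner, and which made these files is not settled. The annotation release and strand setting are not given in the sources used here. GENCODE M21 gave positions and exonic lengths. ERCC rows (92) and 1 unnamed total row were left out of tests and library sizes.

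TMM factors, CPM, and quasi-likelihood tests came from edgeR 4.0.16 in R 4.3.3 after filterByExpr, which all 9 members passed. TPM divides by the union of exons and scales each library to its own sum, without TMM factors. The threshold was an adjusted p of 0.05. DESeq2 1.42.0, other scalings and filters, and leaving out libraries were alternatives. Ratios were compared per library by exact permutation, and shares were described without a test. The exact intervals for counting error came from scipy 1.17.1. Genes named are the members, up to 4 of each other list with a log2 change of at least 1 and a mean of 100 counts, and 3 nearest profiles each for the largest rise and fall. The members and lists were chosen with earlier results of these data known. The labels call the samples cultured cells without saying whether cultures were started separately, so p-values measure the spread between these libraries. No 2 libraries of a group agreed within sampling noise. The exact intervals and the floor of 3 counts cover counting error only. Statistics were tested on simulated data in which few genes changed, equally often up and down. In the real data 82.9% of genes tested passed, so that test does not bear on the choice of scaling.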

Additional observations from a re-analysis of the deposited data

How the results depend on the processing

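Calls and directions of *Prkaa2*, *Prkag2* and *Prkag3* were the same in all 14 alternatives. With ERCC scaling 3 members passed (2 higher, 1 lower): *Prkaa1* was -0.41, *Prkab1* -0.71, *Prkab2* 0.66, *Prkag1* -0.40, *Stk11* -0.36 and *Camkk2* -0.43. ERCC scaling called 5560 of all genes (1813 higher, 3747 lower) and 18 other pathway genes (9 higher, 9 lower), and 7 of the 19 other named genes no longer passed (*Sesn1*, *Sesn3*, *Snrk*, *Srebf1*, *Foxo3*, *Hdac4* and *Mtfr1l*). Without scaling 3 members passed as higher and 6 as lower, with *Prkaa1* at -0.53, *Prkag1* at -0.53, *Stk11* at -0.48 and *Camkk2* at -0.51, beside 3353 of all genes higher and 10953 lower, and 21 other pathway genes higher and 37 lower. With total counts 4 members passed as higher, as *Prkaa1* (0.066), *Prkag1* (0.063) and *Camkk2* (0.088) did not. Of all genes 6283 passed as higher in that setting. *Prkag1* was 0.094 without a filter, where it lost its call (adjusted p = 0.0749). With 1 library left out it ran from 0.085 to 0.18, losing its call without D0 replicate 3. The log2 difference of *Camkk2* to *Stk11* ran from -0.066 to 0.018, changing sign without D5 replicate 2. In plain counts the shares at D0 and D5 were 99.2% and 83.0% for *Prkaa1*, 0.818% and 17.0% for *Prkaa2*, 47.8% and 26.2% for *Prkab1*, 52.2% and 73.8% for *Prkab2*, 72.1% and 18.1% for *Prkag1*, 27.1% and 2.22% for *Prkag2*, and 0.760% and 79.7% for *Prkag3*. With the longest coding transcript as length, chosen after seeing the data, they were 68.7% and 46.0% for *Prkab1*, 31.3% and 54.0% for *Prkab2*, 15.7% and 1.68% for *Prkag2*, 83.8% at D0 for *Prkag1* and 70.7% at D5 for *Prkag3*. A replicate block changed no member's call (*Prkag3* 8.85). Correlations of same-numbered libraries were small (0.0329, 0.0645 and 0.0277), although every library correlated best with its own number. Whether the samples were paired is not settled by these values. Beyond the construction of each alternative, the cause was not tested. The D0 levels of *Prkag3* and *Prkaa2* rest on 16 to 41 counts a library, and *Mark1* and *Brsk2* did not pass the filter on low counts.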
